A study of Mus musculus with 6 samples.

Results

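Genes of the neural lineage were followed in undifferentiated mouse embryonic stem cells (mESCs) with and without *Alkbh1*, which encodes a dioxygenase of the AlkB family. The list holds 46 genes, 28 transcription factors that direct neural fate and 18 genes for structural and other proteins of neurons, neural progenitors and glia. Members were found in the deposited table of 33142 probe sets by gene symbol, older symbol or gene identifier, and each gene was read at the probe set with the highest mean signal. A probe set is the group of short oligonucleotides on the array that together report on a transcript. A total of 64 probe sets represented 38 of the genes, namely 21 of the transcription factors and 17 of the structural genes. *Pax2*, *Otx1*, *Lhx2*, *Emx2*, *Dlx1*, *Dlx2*, *Nkx2-2* and *Dcx* were not analysed here.

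The series compared 3 microarrays of wild-type (WT) mESCs with 3 of Alkbh1-/- mESCs, all C57BL/6, at passage 8 and day 0, that is before differentiation was induced. Both genotypes were kept undifferentiated in KO-DME medium with leukemia inhibitory factor, on a layer of irradiated CF-1 embryonic fibroblasts, and came from littermate blastocysts of heterozygous parents. All arrays of a genotype share a single code in the labels and no separate derivations are named, so the genotype and the cell line that carries it cannot be told apart. Nothing in the labels says that the 3 arrays of a genotype came from separate cultures. Only means that the authors had made over arrays were used, so no standard deviation, standard error or p-value belongs to any difference below, and the spread between replicate arrays could not be set against it.

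Neural fate is set in steps. Transcription factors of the basic helix-loop-helix, paired box, zinc finger and homeobox families pattern the neural plate and commit progenitors, and the genes for cytoskeleton, adhesion and synapse follow as neurons mature. In mESCs held in leukemia inhibitory factor, most of these factors are known to be off or poised. Some structural genes are also used outside neurons.

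The targeted gene was looked at first, as a check of the labels. At its brightest probe set (1434660_at), *Alkbh1* had an authors' mean of 9.57 in WT and 4.69 in Alkbh1-/- mESCs on the log2 scale, a 29.6-fold lower intensity in the cells without the gene. The other probe set (1438681_at) gave 6.91 and 5.11. Both probe sets were lower in the samples labelled Alkbh1-/-.

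The signal of each gene over both genotypes was taken from the authors' mean log2 value over all arrays. Over the whole table, these means ran from 3.22 to 14.67 with a median of 6.31, and a probe set below that median was called dim. Of the 38 neural genes, 25 (65.8%) were dim, against 50.0% of all probe sets by construction. The shares are unlike, since a gene was read at its brightest probe set, which favors bright readings in the 16 genes with more than 1. The classes differed at the brightest probe set, with 17 of 21 transcription factors (81.0%) and 8 of 17 structural genes (47.1%) being dim. The gap depended on that choice. With the signals of all probe sets of a gene averaged, 17 transcription factors and 11 structural genes were dim. Below the lower quartile of the table (4.797) were 13 transcription factors and 3 structural genes. The median percentile among all probe sets was 23.1 for the transcription factors and 52.0 for the structural genes. Brightness depends on the oligonucleotides as well as on the transcript, so a percentile places a probe set on the array and does not rank the abundance of genes. All 10 pluripotency markers lay at or above the 89.9th percentile, among them *Pou5f1* and *Sox2* with mean log2 values of 12.64 and 12.66.

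**Figure D1:**
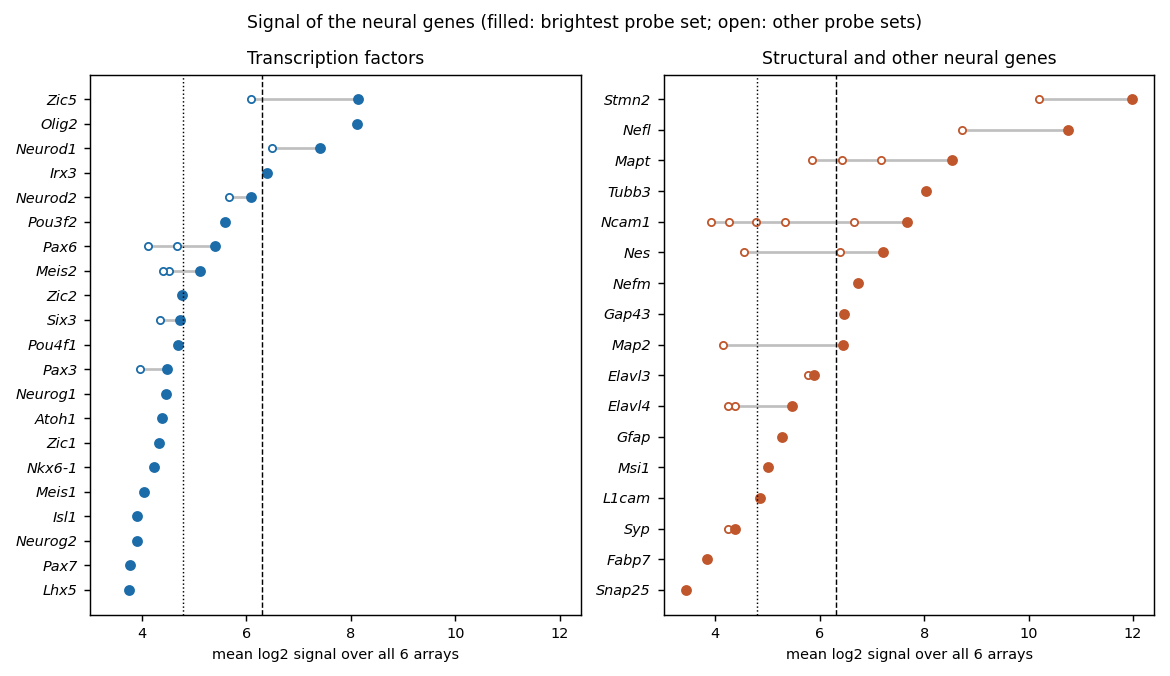
Mean log2 signal over all 6 arrays (horizontal axis) of every probe set of the neural genes, transcription factors on the left and structural genes on the right. Filled points are the brightest probe set of a gene and open points the others; the dashed line is the median of all probe sets (6.31) and the dotted line the lower quartile (4.797). Only 4 transcription factors, *Zic5*, *Olig2*, *Neurod1* and *Irx3*, lie right of the dashed line, against 9 structural genes.

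Among the basic helix-loop-helix factors, which bind E-box motifs and drive neurogenesis, *Neurod1* and *Olig2* were the bright ones, at mean log2 values of 7.42 and 8.12. *Neurod2* lay just under the median at 6.09. The proneural genes *Neurog1*, *Neurog2* and *Atoh1* were near the bottom of the range, at 4.47, 3.91 and 4.38. Each of these 3 genes was read by 1 probe set, and a low signal does not show that the transcript is absent.

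The paired box and zinc finger factors were dim, with the exception of *Zic5*. *Pax6*, which specifies eye and forebrain, reached 5.41 at the brightest of its 3 probe sets, and *Pax3* and *Pax7*, of the dorsal neural tube, reached 4.48 and 3.77. *Zic1* and *Zic2*, which act in neural plate patterning, had mean log2 values of 4.33 and 4.78. *Zic5*, a relative of the same zinc finger family, was the brightest transcription factor probe set of the list at 8.15, and its other probe set was dim at 6.10.

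Among the homeobox factors, *Irx3*, a patterning factor of the neural tube, lay just above the median at 6.40. *Pou3f2*, used in neuronal commitment, was at 5.59 and *Meis2* at 5.12. *Six3*, *Pou4f1*, *Nkx6-1*, *Meis1*, *Isl1* and *Lhx5* had mean log2 values from 4.74 down to 3.75, all under the lower quartile. *Lhx5* was the lowest transcription factor of the list, at the 1.13th percentile.

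Structural genes were spread over nearly the whole range. *Stmn2*, which encodes a microtubule-destabilizing protein of growing axons, had the highest mean log2 value of the list at 11.98, and its other probe set stood at 10.20. *Nefl*, the light neurofilament subunit, followed at 10.75. *Mapt* (tau) and *Tubb3* (neuronal beta-tubulin) were at 8.52 and 8.04, and the neural cell adhesion molecule *Ncam1* and the progenitor intermediate filament *Nes* at 7.67 and 7.21. *Nefm*, *Gap43* and *Map2* were slightly above the median, at 6.74, 6.47 and 6.46.

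The dim structural genes included the synaptic vesicle protein gene *Syp* at 4.39 and the gene for the membrane fusion protein *Snap25*, at 3.44 the lowest of all the neural genes. The neuronal RNA-binding protein genes *Elavl3* and *Elavl4* were at 5.89 and 5.47, and *Msi1*, of neural progenitors, was at 5.01. The glial genes *Gfap* and *Fabp7* had mean log2 values of 5.27 and 3.84, and *L1cam*, an axonal adhesion molecule, was at 4.85.

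A second table, made by a service company, gives the geometric mean intensity of each genotype for 4326 entries that had passed a nominal p of 0.05 in its own test. The values of an entry do not belong to the probe set named beside it, so they were joined to probe sets by their mean signal, which succeeded for 4231 entries (12.8% of all probe sets). Group means could thus be had for 16 of the 64 neural probe sets. At the brightest probe set they covered 8 genes, 2 of 21 transcription factors and 6 of 17 structural genes. Because entries were listed for differing between genotypes, that these 8 genes differ is a condition of having a value and not a finding. The smallest difference among all entries was 0.37 on the log2 scale. The other 30 genes had no group means at the brightest probe set, which does not show that their levels were equal; 6 of these were bright, *Zic5*, *Irx3*, *Nes*, *Tubb3*, *Gap43* and *Stmn2*.

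Both transcription factors with group means had lower means in Alkbh1-/- than in WT mESCs, whereas the structural genes were divided. Relative to WT, the Alkbh1-/- mean was higher for *Nefm*, *Mapt*, *Ncam1* and *L1cam* and lower for *Nefl* and *Map2*. A linear fold of 1.5 was taken as the threshold, which is 0.585 on the log2 scale. Past it, 3 of 8 genes were higher (*Nefm*, *Mapt* and *Ncam1*) and 3 of 8 were lower (*Neurod1*, *Olig2* and *Nefl*), or 37.5% each way. Over all probe sets with both group means, 32.8% were higher and 30.3% lower past the same fold. The median log2 difference was -0.06 over the 8 genes and 0.42 over all probe sets with group means. No entry differed by less than 0.37, so a median here mainly shows which direction holds more entries, and the 2 medians are not compared. Of the 8 genes, 4 were higher and 4 lower, and of all probe sets with group means 2178 were higher and 2053 lower. This background differs by chromosome. Of 485 probe sets of X-linked genes with group means, 94.2% had a higher mean in Alkbh1-/- mESCs, with a median of 0.75, against 44.3% of 3223 on autosomes, with a median of -0.47. On autosomes, 25.2% were higher and 35.1% lower past 1.5-fold. All of the 8 genes but *L1cam* are autosomal, and of these 7, 42.9% were higher and 42.9% lower past the threshold, with a median of -0.54. With so few genes, nothing particular to the list is read from these shares.

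**Figure D2:**
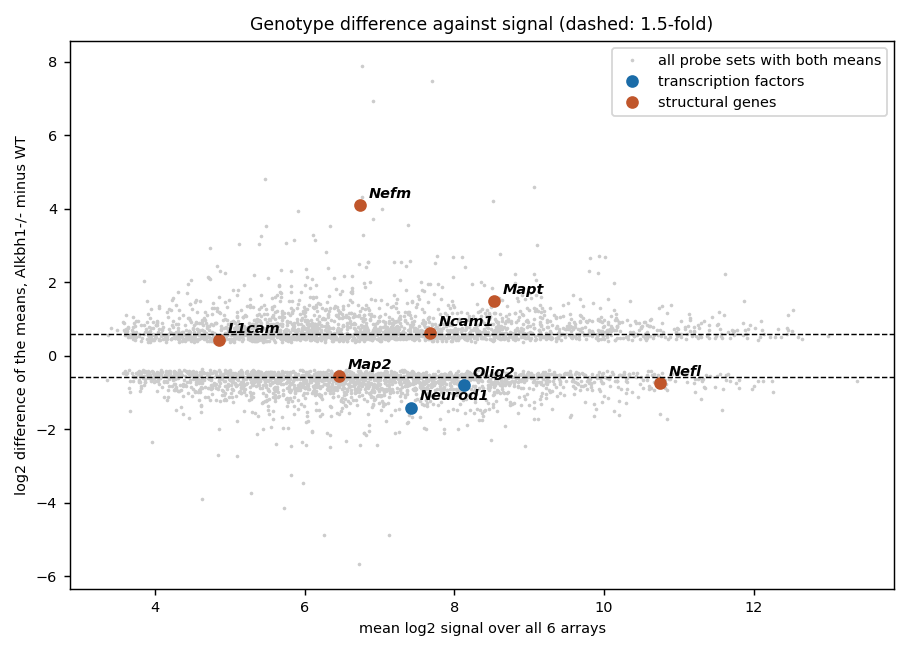
Log2 difference between the authors' group means, Alkbh1-/- minus WT (vertical axis), against the mean log2 signal over all arrays (horizontal axis), for the 4231 probe sets with both means (grey) and the brightest probe sets of the 8 neural genes among them. Dashed lines mark 1.5-fold; the smallest size of a difference is 0.37, and *Nefm* (4.11) lies at the upper edge of the cloud.

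*Neurod1*, which promotes neuronal differentiation, had authors' mean intensities of 278 in WT and 105 in Alkbh1-/- mESCs at its brightest probe set (1426413_at), a 2.65-fold lower value in the latter. On the log2 scale the means were 8.12 and 6.71, a difference of -1.41. Its other probe set (1426412_at) had log2 means of 7.21 and 5.79, a difference of -1.42, so both probe sets of the gene gave nearly the same size. *Olig2*, a factor of oligodendrocyte and motor neuron progenitors, has a single probe set (1416232_at), with mean intensities of 365 in WT and 213 in Alkbh1-/- mESCs. That is a 1.72-fold lower value, or a log2 difference of -0.78. *Olig1*, its neighbor on the chromosome and not a member of the list, had a mean log2 signal of 9.91 and no group means.

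The promoters of these 2 factors are shown because both genes had a lower mean in Alkbh1-/- mESCs. They are the 250 bases before the transcription start from RefSeq, assembly GRCm38.p6, written 5′ to 3′ on the strand of the gene, and capitals mark E-boxes (CANNTG, which reads the same on both strands). The window of Neurod1 lies at chr2:79456637-79456886 on the minus strand and that of Olig2 at chr16:91225300-91225549 on the plus strand.

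Neurod1: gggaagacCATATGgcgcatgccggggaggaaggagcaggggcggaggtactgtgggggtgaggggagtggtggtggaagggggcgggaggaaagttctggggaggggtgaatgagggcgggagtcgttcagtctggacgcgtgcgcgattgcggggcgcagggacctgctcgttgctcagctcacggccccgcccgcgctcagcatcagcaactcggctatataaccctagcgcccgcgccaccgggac

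Olig2: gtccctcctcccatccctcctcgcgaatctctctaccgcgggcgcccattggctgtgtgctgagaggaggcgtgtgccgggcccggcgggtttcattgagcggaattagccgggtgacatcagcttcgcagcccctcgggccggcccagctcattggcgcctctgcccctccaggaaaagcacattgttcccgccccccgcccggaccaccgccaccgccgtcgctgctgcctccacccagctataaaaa

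The window of *Neurod1* held 1 E-box, starting 242 bases before the transcription start, and that of *Olig2* held 0, whereas 66.2% of 32851 RefSeq promoter windows of this length held at least 1. The GC box GGGCGG, searched on both strands, occurred 4 times in the *Neurod1* window and 2 times in the *Olig2* window, and in 32.7% of all windows. The motif CCAAT on either strand was found 2 times for *Olig2* and 0 times for *Neurod1* (33.8% of all windows). TATAAA on either strand was found 1 time, starting 8 bases before the start of *Olig2* (12.4% of all windows). The GC content was 67.6% for *Neurod1* and 66.8% for *Olig2*, beside a median of 52.4% over all windows. These are matches of letters and no factor was measured there. Of the 8 genes with group means, 4 had a promoter in the reference used here, the others being *Map2* and *L1cam*.

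The neurofilament genes gave the largest difference of the list and also one in the opposite direction. Neurofilaments are the intermediate filaments of axons, built from light, medium and heavy subunits together with alpha-internexin. *Nefm*, the medium subunit (1422520_at), had authors' mean intensities of 25.7 in WT and 443 in Alkbh1-/- mESCs, a 17.2-fold higher value in the latter. Its log2 means were 4.68 and 8.79, a difference of 4.11, and only 7 of the 4231 probe sets with group means had a larger one. The WT mean lay under the lower quartile of the table, so the size of this fold depends on how low the array reads a scarce transcript.

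*Nefl*, the light subunit (1426255_at), had mean intensities of 2222 in WT and 1332 in Alkbh1-/- mESCs. That is a 1.67-fold lower value, a log2 difference of -0.74, in a bright probe set. Its other probe set (1454672_at, mean log2 signal 8.72) had no group means. *Nefl* and *Nefm* lie next to each other on chromosome 14 of GRCm38.p6 with 0 protein-coding genes between them, and their genotype means differed in opposite directions. Of the further subunits, *Ina* (alpha-internexin) was 3.76-fold lower in Alkbh1-/- mESCs, with mean intensities of 791 and 210, and *Nefh*, the heavy subunit, had a mean log2 signal of 8.10 without group means.

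The microtubule-associated protein genes were likewise split. *Mapt* was higher in Alkbh1-/- mESCs at all 4 of its probe sets, with log2 differences from 0.73 to 1.497. At the brightest (1424719_a_at), the mean intensity was 219 in WT and 618 in Alkbh1-/- mESCs, a 2.82-fold higher value. The smallest difference was that of the dimmest probe set (1417885_at, log2 means of 5.49 and 6.21). *Map2*, which stabilizes dendritic microtubules, had mean intensities of 106 in WT and 72.7 in Alkbh1-/- mESCs at 1434194_at, 1.46-fold lower and short of the threshold. Its other probe set was dim (4.14) and had no group means.

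Of the adhesion molecule genes, both members with group means, *Ncam1* and *L1cam*, were higher in Alkbh1-/- mESCs. *Nrcam*, which is no member, was dim and lower (log2 difference -0.61). *Ncam1* has 6 probe sets, and the 4 with group means were all higher, by log2 differences of 0.49 to 1.15. Its brightest probe set (1426864_a_at) went from a mean intensity of 164 in WT to 254 in Alkbh1-/- mESCs, 1.55-fold, just past the threshold, and the next (1426865_a_at) from 67.6 to 150, 2.22-fold. *L1cam* was dim, with mean intensities of 24.9 in WT and 33.4 in Alkbh1-/- mESCs, a log2 difference of 0.42. *L1cam* is X-linked, and the part of the higher values of X-linked genes in its difference was not tested.

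For *Elavl4*, an RNA-binding protein of neurons, group means could be had only at the dimmest of 3 probe sets (1452894_at). They were 4.54 in WT and 3.95 in Alkbh1-/- mESCs on the log2 scale, both under the lower quartile of the table, a 1.51-fold lower value that was not counted above because brighter probe sets of the gene had none. In the 3 genes with group means at more than 1 probe set (*Neurod1*, *Mapt* and *Ncam1*), the probe sets of a gene that had them shared 1 direction. For *Ncam1*, 2 of the 6 probe sets had none, and their direction is not known.

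**Figure D3:**
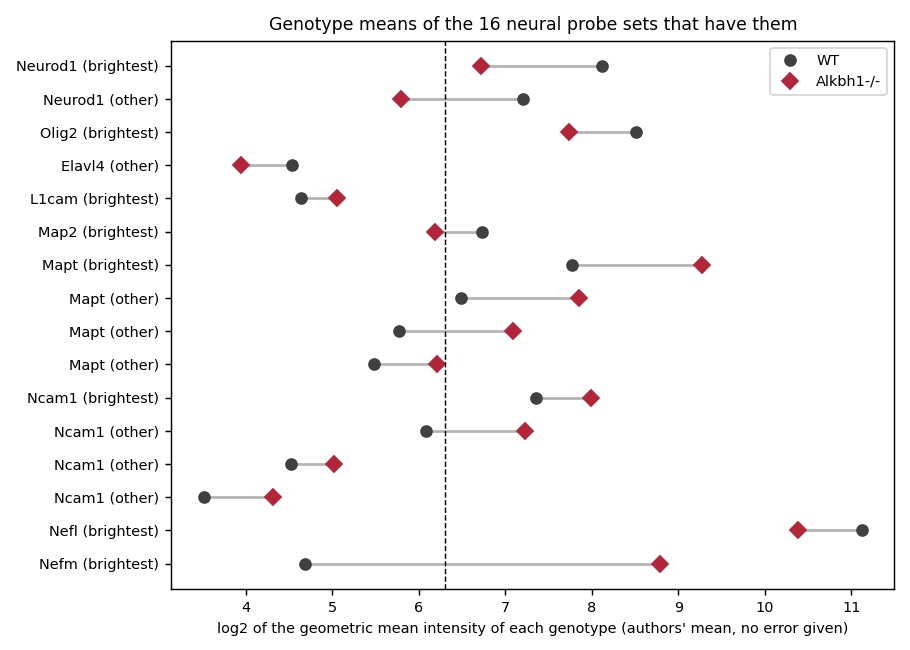
Authors' mean of WT (circles) and of Alkbh1-/- mESCs (diamonds) as log2 of the geometric mean intensity (horizontal axis), for the 16 neural probe sets that have both, with no error available; the dashed line is the median signal of all probe sets (6.31). *Neurod1* and *Olig2* at the top have the diamond on the left (lower in Alkbh1-/-), every probe set of *Mapt* and *Ncam1* has it on the right, and *Nefm* spans 4.68 to 8.79.

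A further list of 58 neural genes, 35 transcription factors and 23 structural genes, was compared with the members. Of these, 42 had a probe set and 11 had group means at the brightest one. Past 1.5-fold, 8 of the 11 were lower in Alkbh1-/- mESCs (72.7%, beside 35.1% of the autosomal probe sets with group means, since all 11 are autosomal, and 30.3% of all) and 2 were higher, and the median log2 difference was -0.77. Besides *Ina*, the lower ones were *Crmp1* (semaphorin signaling), *Prom1* (a progenitor surface glycoprotein), *Gbx2* (hindbrain patterning), *Ncan* (a proteoglycan of brain matrix), *Stx1a* (synaptic vesicle fusion), *Map1b* (microtubule binding) and *Nrcam* (neuronal adhesion), with log2 differences of -1.60, -1.05, -1.05, -0.88, -0.77, -0.69 and -0.61. The higher ones were *Pou4f2*, a homeobox factor of retinal ganglion cells, at 0.99, and *Tubb2b*, a beta-tubulin of the developing brain, at 0.90. Of the 11 genes, *Pou4f2*, *Ncan* and *Nrcam* were dim, with mean log2 signals of 5.47, 5.58 and 5.38. *Slc1a3*, a glial glutamate transporter, was at -0.49. Neither list was tested, and both were drawn up with earlier results of these arrays known.

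Markers of other cells in the culture were set beside these values. Of 12 markers of the fibroblast feeder layer, 5 had group means at the brightest probe set, *Col1a1*, *Lox*, *Fbn1*, *Col3a1* and *Thy1*. Each had a smaller mean in Alkbh1-/- than in WT mESCs, with log2 differences from -1.06 to -0.52. These 5 too were listed for differing between genotypes. Past 1.5-fold, 4 of the 5 (80.0%) were lower, beside 35.1% of the autosomal probe sets with group means. The summed mean intensity of the 5 was 5196 in WT and 2759 in Alkbh1-/- mESCs, 1.88-fold lower. The brightest feeder probe sets, of *Fn1*, *Col1a2* and *Acta2* (mean log2 signals of 12.06, 11.82 and 11.18), had no group means. They are not in this sum, which is therefore not the change of the whole feeder set. *Col1a2*, left out of this sum, had group means only at another probe set (1423110_at), with a log2 difference of -1.06. A single one of the 12, *Lum* at a mean log2 signal of 6.21, was dim. Of the 10 pluripotency markers, 5 had group means at the brightest probe set, *Nanog*, *Klf4*, *Esrrb* and *Zfp42* with higher means in Alkbh1-/- mESCs and *Utf1* with a lower one, from 1.10 to -0.49. Higher past 1.5-fold were 2 of the 5 (40.0%), beside 25.2% of the autosomal probe sets with group means. *Pou5f1*, *Sox2*, *Dppa5a* and *Tdgf1* had no group means. *Fgf4* had them only at its other probe sets, all higher in Alkbh1-/- mESCs, by log2 differences of 0.46 to 0.58. The part of either set of markers in the differences of the neural genes was not tested. In bulk RNA, fewer cells of a kind and less RNA per cell cannot be told apart.

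**Figure D4:**
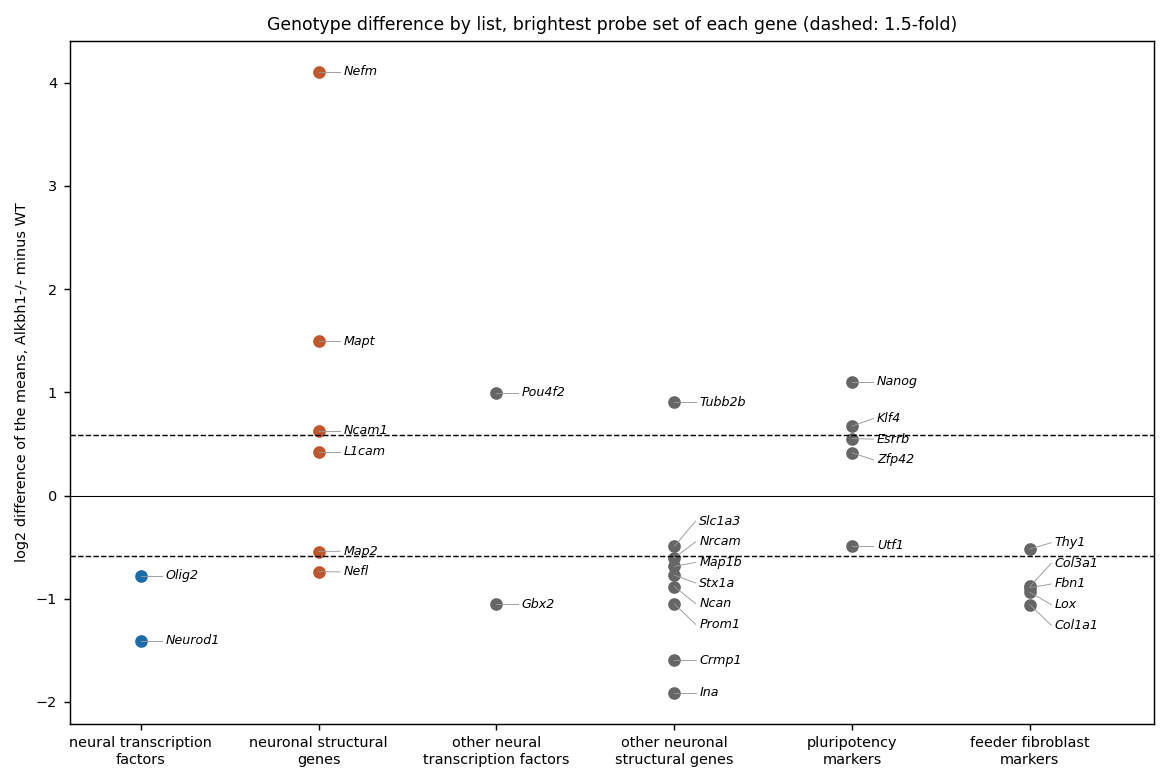
Log2 difference between the authors' group means, Alkbh1-/- minus WT (vertical axis), for the brightest probe set of each gene with group means, by list; each point is a gene and dashed lines mark 1.5-fold. Of the member lists (coloured), both transcription factors lie below 0 and the structural genes run from -0.74 (*Nefl*) to 4.11 (*Nefm*); of the other lists (grey), *Pou4f2* and *Tubb2b* are the neural genes above 0, *Ina* is the lowest at -1.91, and all 5 feeder fibroblast markers lie below 0.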

How the data were processed

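RNA of 6 samples was hybridized to Affymetrix Mouse Genome arrays. Per the labels and the readme with the tables, the authors normalized all arrays together with the RMA algorithm. The mean log2 value of 33142 probe sets over all arrays was deposited by the authors, with a filter not given in the sources used here. Geometric mean intensity values of each genotype were deposited for 4326 entries, from 7320 probe sets that had passed the service company's filter; the readme states that the class named beside the Alkbh1-/- class is WT, mislabelled. The columns with the authors' own comparison (log2 fold, statistics, p-values) were not used. A planned limma fit needs values of single arrays and only means over arrays were used, so it was not made. Differences between group means carry no test.

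Means of both genotypes were averaged on the log2 scale and matched to the mean of a probe set within 1e-06, taking matches that were unique on both sides. This joined 4231 entries and left 95 unjoined; 8 of those joined stood beside the same probe set identifier. The join was tested on simulated data in which the entries were made from the probe set means themselves. That test covers mix-ups between probe sets of close signal. It cannot show that the deposited means of both kinds come from the same normalized values. A probe set whose identifier named another RefSeq gene was left out, and 38 neural probe sets were found by symbol, 10 by older symbol and 16 by gene identifier. All members were named in the text, along with genes of the other lists that passed the fold threshold; *Olig1*, *Nefh*, *Slc1a3* and the single marker genes named were chosen after their values were seen. The background on autosomes was added after the values were seen. The number of arrays limits the precision. Members and lists were chosen with earlier results of these data known. Python 3.11.15, pandas 2.3.3, NumPy 2.4.6 and matplotlib 3.10.9 were used.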

Additional observations from a re-analysis of the deposited data

How the results depend on the processing

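A fold of 2 left the 2 higher genes *Nefm* and *Mapt* and 1 lower gene (*Neurod1*) of the list, so that 1 transcription factor and 0 structural genes were lower, and 0 higher and 4 lower among the other neural genes. At a fold of 1.5 on the log2 scale, 1 gene was higher (*Nefm*) and 0 were lower, in either class. Averaging the probe sets of a gene gave 2 lower structural genes, as *Elavl4* entered through its dimmest probe set, and brought *Mapt* to 1.23 and *Ncam1* to 0.77 on the log2 scale. The same averaging raised the dim structural genes from 8 to 11 and left the dim transcription factors at 17. With names from the symbol column alone, an alternative chosen after seeing the data, *Nefm*, *Nefl* and *Map2* had no value at all, since no probe set of theirs carries the symbol, which left 2 higher and 0 lower structural genes, and *Ncam1* was read at 1.15. With dim set below the lower quartile, 16 genes were dim, of which 3 were structural. A tighter join and setting dim at a log2 signal of 6 moved no count by over 1.5 times. Leaving out probe sets with names in _s_at or _x_at, or dim probe sets, could not change the fold counts. None of the brightest probe sets of the 8 genes has such a name, and the only dim one, *L1cam*, was short of the threshold. The direction of the 8 genes was the same under all alternatives that gave a value. For *Olig2*, *Map2*, *L1cam*, *Nefl* and *Nefm* it could not reverse, since only 1 probe set of each had group means. No paired analysis was possible because the columns carry group means and no replicate numbers, and for the same reason no replicate could be left out.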
